A study of Mus musculus with 8 samples.

Results

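The genes described here carry the symbols of mitochondrial ribosomal proteins. Most encode proteins of that ribosome, but the product of Mrps36 belongs to another complex, and some ribosomal proteins have other symbols. They were chosen by name alone: every gene of the 8 count files whose mouse symbol is Mrpl or Mrps, a number and at most 1 letter. Of 13227 genes in the files, 77 met the rule, 48 of them with large subunit symbols (Mrpl) and 29 with small subunit symbols (Mrps). All 77 are protein coding and all were tested. A further annotated gene that matches the rule, Mrpl53, was not analysed here. The hearts came from male FVB/N mice, an inbred strain, at 3 months of age. One group of 4 hearts (A, B, D and E) was non-transgenic, labelled NTG. The other 4 hearts (A, B, C and E) carried a FASTKD1 transgene, labelled TG, which the series title describes as cardiac-specific overexpression; the sources used here give neither its promoter nor the number of founder lines. The comparison asks how raised FASTKD1, which belongs to the FASTK family of RNA-binding proteins of mitochondria, goes with gene expression in the heart.

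Mitochondria keep their own ribosome, which translates the few mRNAs encoded in mitochondrial DNA into core subunits of the respiratory chain. Its RNA is encoded in mitochondrial DNA, whereas its proteins are encoded in the nucleus, made in the cytosol and imported. Some of these proteins descend from bacterial ribosomal proteins, and others occur in mitochondria only. Heart muscle is rich in mitochondria and depends on the respiratory chain for most of its energy.

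Levels are given as CPM, the counts of a gene scaled to a common library size, on library sizes scaled by TMM, a method that sets the bulk of genes equal between libraries. Library totals ran from 44584359 to 55769859 counts, and a member had between 188 and 13117 counts in a library. Counting error is part of the spread between hearts, and for some members, such as Mrps33 in the TG hearts, that spread was no larger than counting error. The hearts were compared in 1 edgeR quasi-likelihood fit across 13226 genes, with Benjamini-Hochberg adjustment over all of them and a threshold of 0.05. Nothing beyond the titles says that the libraries are separate animals, so p-values measure the spread between these libraries. Fastkd1 was at 9932 ± 1162 CPM in TG and 70.6 ± 80.9 CPM in NTG hearts (n = 4 each, ± SD). The heart labelled non-transgenic D stood apart: its Fastkd1 value was 192 CPM, and it had 0 counts over 4 Y-linked genes where the other 7 libraries had 10372 to 15914, although it is labelled male. Transgenic heart A stood apart by its summed CPM over 4 atrial marker genes, 2988 against 572 in non-transgenic heart D and 16.2 to 241 in the other 6. Results are therefore also given without heart D and without both of these hearts. Ventricular cardiomyocyte markers (6 of 6 genes measured) summed to 60013 to 70189 CPM in non-transgenic and 49617 to 51590 CPM in transgenic hearts, and 0 of the 6 passed the test. Their part in the results below was not tested; in whole hearts, fewer cells of a type and less RNA per cell cannot be told apart.

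No gene of the mitochondrial ribosome passed the test in either direction. Of 48 large subunit genes 0 rose and 0 fell, and of 29 small subunit genes likewise 0 and 0, where 1.01% of all tested genes rose and 0.242% fell. The median log2 fold change, transgenic over non-transgenic, was -0.135 (quartiles -0.193 and -0.009) for the large and -0.111 (quartiles -0.186 and 0.035) for the small subunit, beside 0.006 (quartiles -0.119 and 0.122) for all tested genes. The fold change was below 0 for 57 of the 77 members (74.0%), 37 large and 20 small, against 48.8% of all tested genes. These members share the same 8 hearts and varied together, so the counts describe the list and are not independent observations.

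In the main fit, with all hearts and TMM scaling, an interval was set for the change of each member. Each interval holds for its own member and not for all 77 jointly, so some may miss. They also depend on the hearts and the scaling. Without non-transgenic heart D the log2 fold change of Mrpl14 was -0.52 (SE 0.104). The median log2 fold change of the 77 members was -0.117 in the main fit and -0.04 with library totals. In the main fit the 95% interval of the log2 fold change lay within a 2-fold change in either direction for all 77 members. It lay within 1.5-fold for 71 and within 1.25-fold for 25. The largest rise that any interval of this fit allowed was 0.63 on the log2 scale (Mrps34) and the largest fall was -0.69 (Mrpl14). A 1.5-fold rise was outside the interval of every member but Mrps34, and a 1.5-fold fall was outside that of 72 members.

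**Figure D1:**
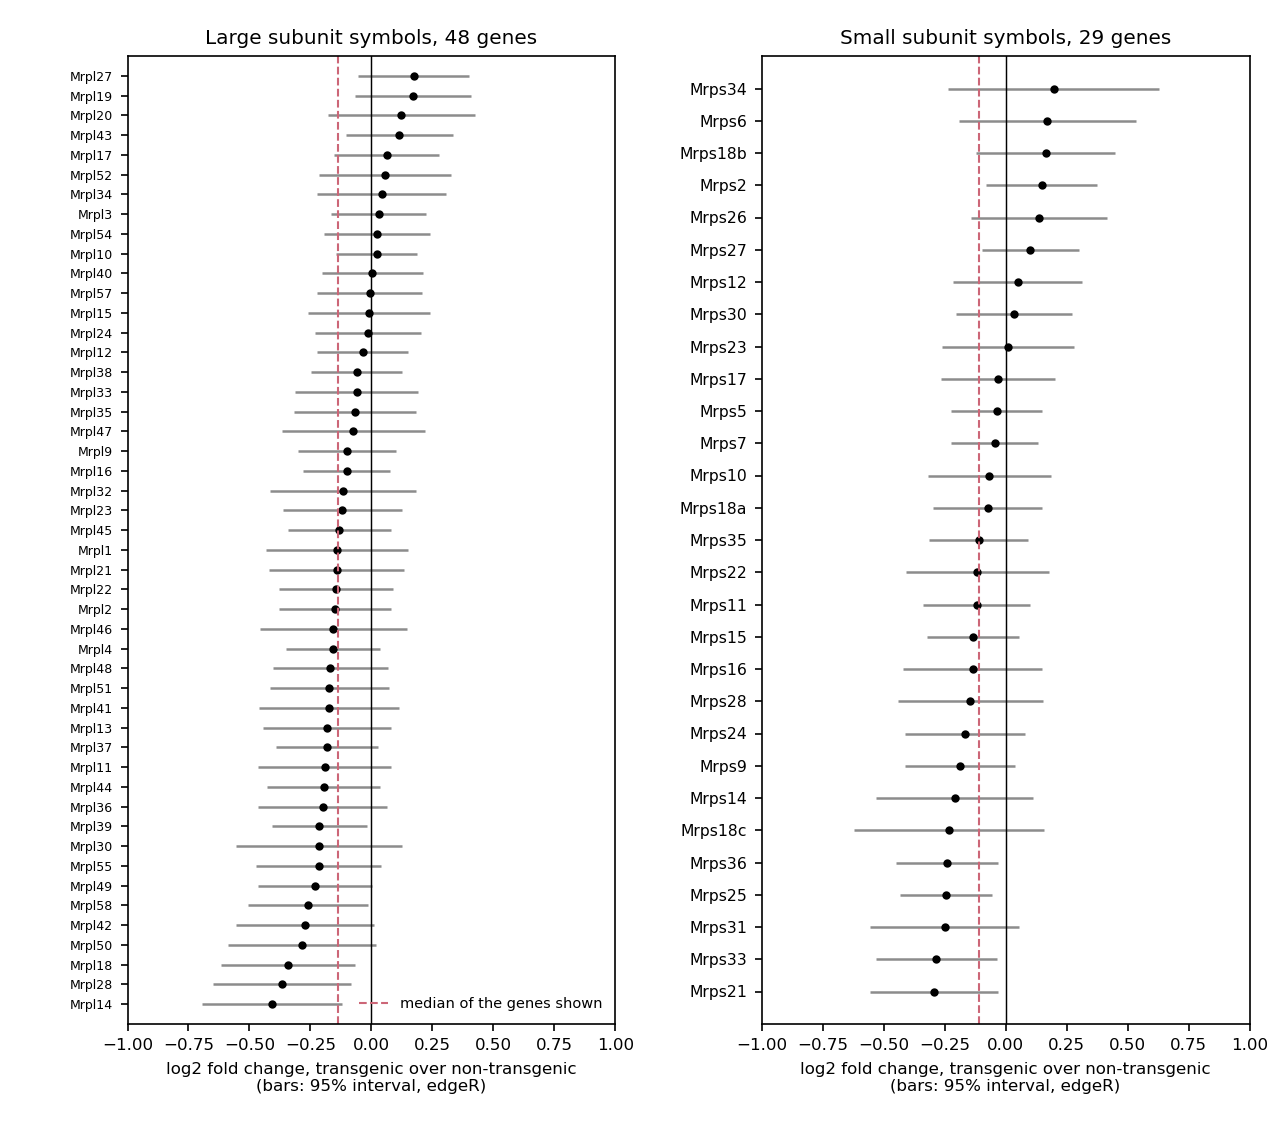
Log2 fold change of each member, transgenic over non-transgenic hearts, with its 95% interval from the edgeR fit; large subunit symbols are on the left and small subunit symbols on the right, ordered by value, and the dashed line is the median of the genes shown. Most points lie left of 0, with medians of -0.135 and -0.111, and no member passed the threshold after adjustment.

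Transcript levels of these genes were far from equal, although a finished ribosome holds most of its proteins in single copy. Per kilobase of merged exon, levels in non-transgenic hearts spanned 42.8-fold, from 1.98 CPM per kb for Mrpl23 to 84.8 CPM per kb for Mrps23. After Mrps23, a mitochondria-specific protein of the small subunit, came Mrps21 (74.9 ± 11.95 CPM per kb, SD, n = 4), Mrpl28 (74.0 ± 13.3), Mrpl42 (73.4 ± 13.1), Mrpl12 (56.3 ± 3.92), Mrpl18 (50.2 ± 7.61), Mrps28 (48.7 ± 8.91) and Mrpl2 (46.9 ± 5.61). Neighbouring means were mostly close beside the spread between hearts. Of 76 neighbouring pairs, the means of 2 differed by more than the sum of their SDs. The members varied together across the same hearts, so these SDs do not measure how well 2 genes separate within a heart. At the low end stood Mrpl23, Mrps10 (2.50 ± 0.38 CPM per kb), Mrpl48 (3.65 ± 0.48), Mrps34 (3.79 ± 1.02), Mrpl17 (4.24 ± 0.48), Mrps30 (4.46 ± 0.46), Mrps5 (4.72 ± 0.35) and Mrpl33 (4.84 ± 0.74). Merged exons count every annotated exon, including those a heart may not use, which lowers the value of genes with long alternative exons. The genes named at the low end had merged exons of 4883 to 8152 bp, except Mrps34 (2064 bp), beside a member median of 2533 bp. Of those named at the high end, only Mrpl42 (3682 bp) exceeded that median. How much of the order rests on these lengths was not tested. The median level was 18.6 CPM per kb for the large and 13.1 CPM per kb for the small subunit.

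**Figure D2:**
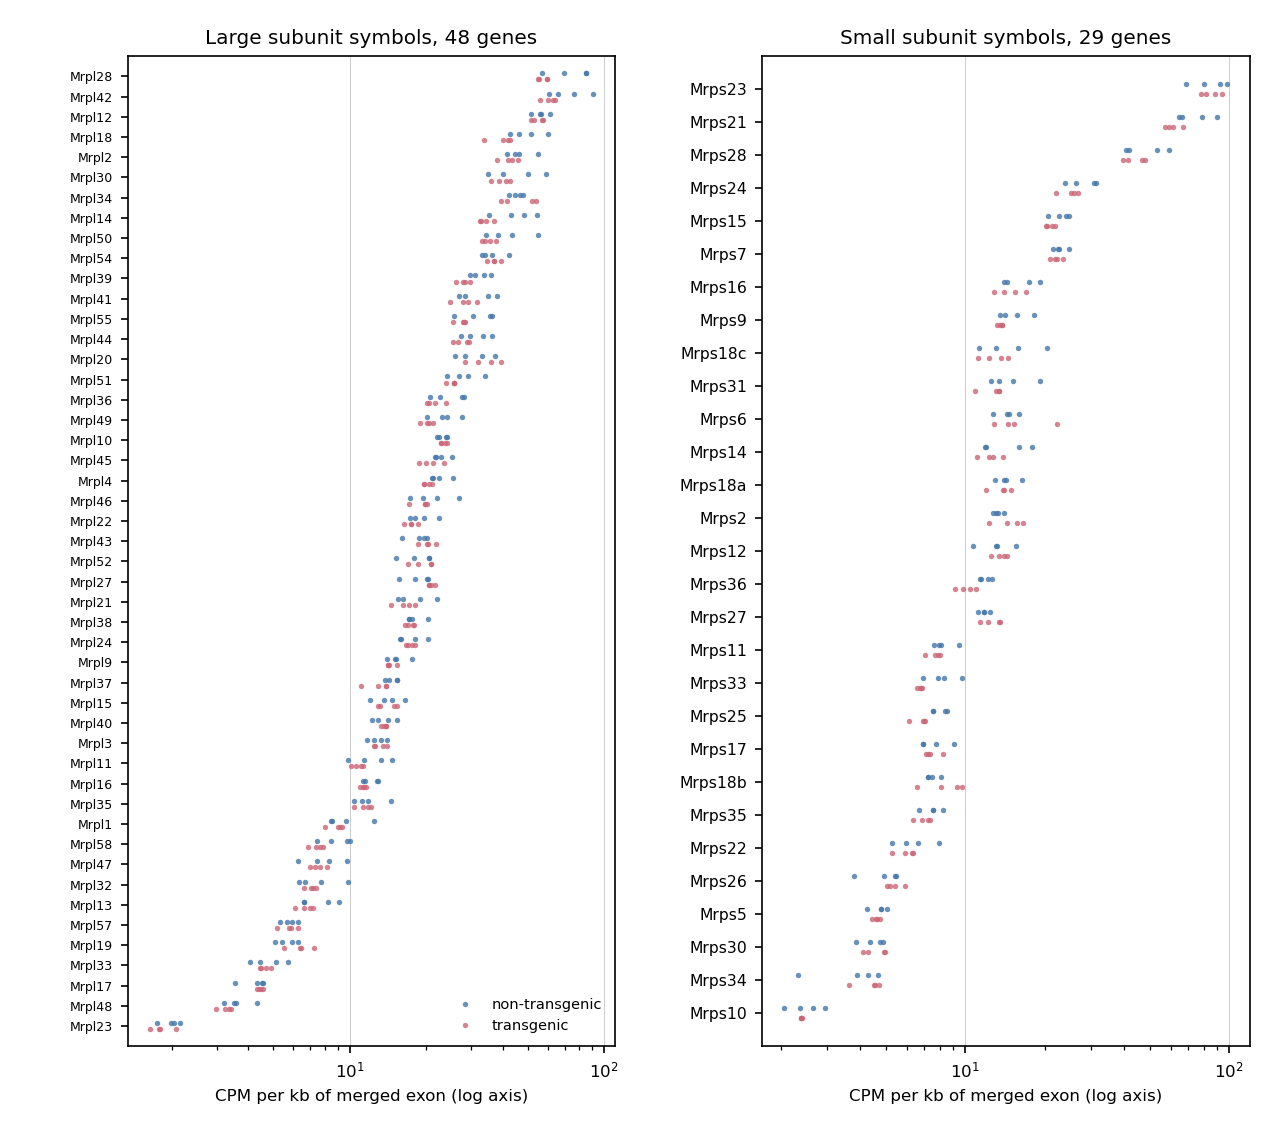
Level of each member in each heart as CPM per kilobase of merged exon, on a log axis, with non-transgenic hearts in blue and transgenic hearts in red; genes are ordered by their mean in non-transgenic hearts. Levels run from 1.98 CPM per kb (Mrpl23) to 84.8 CPM per kb (Mrps23), and the 2 groups overlap in all but 5 genes.

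Genes of this family are known for compact promoters without a TATA box, often served by ETS factors such as GABP, by NRF1 and by YY1. RefSeq promoter windows on GRCm38.p6, 300 bases with 50 of them after the start, were found for 68 of the 77 members. Short core motifs were searched on both strands: CCGGAAG for ETS factors, GCGCATGC for NRF1, AAGATGGCG for YY1 and TGATGCAA for the element bound by ATF4 and its partners. The ETS core was in 33.8% of the members' 74 windows and in 16.5% of all 12906 windows of genes in the count files. For NRF1 the shares were 10.8% and 4.96%, and for YY1 10.8% and 2.87%. The ATF4 element was in 0% of the members' windows and 0.590% of all, which says only that these letters are not in these windows. A match is a description of sequence and not evidence of binding. The full NRF1 site reads alike on both strands and can hold the core on each; a window was counted once. No searched motif contains another.

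The following stretches of 247 bases begin 250 bases before the start site and end shortly before it, 5′ to 3′ on the gene's strand, from the RefSeq table on GRCm38.p6. They show the members with the most counts (Mrpl42) and the highest level per kilobase (Mrps23), neither of which has a searched motif in this stretch (Mrpl42 has a YY1 core and Mrps23 an ETS core just after the start), beside a large and a small subunit gene that do. Capitals mark the NRF1 and ETS cores in Mrpl22 and the ETS core in Mrps22.
Mrpl22, chr11:58171414-58171660, plus strand: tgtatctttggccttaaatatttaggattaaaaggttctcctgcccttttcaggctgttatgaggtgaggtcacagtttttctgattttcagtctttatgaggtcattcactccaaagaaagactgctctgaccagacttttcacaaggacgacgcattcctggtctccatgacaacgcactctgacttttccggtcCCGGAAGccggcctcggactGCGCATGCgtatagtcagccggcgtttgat
Mrps22, chr9:98601683-98601929, minus strand: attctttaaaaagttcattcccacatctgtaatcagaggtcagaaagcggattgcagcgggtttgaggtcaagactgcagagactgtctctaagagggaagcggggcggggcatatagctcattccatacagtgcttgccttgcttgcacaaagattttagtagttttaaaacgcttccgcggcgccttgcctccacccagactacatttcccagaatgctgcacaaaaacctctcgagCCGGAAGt
Mrpl42, chr10:95501953-95502199, minus strand: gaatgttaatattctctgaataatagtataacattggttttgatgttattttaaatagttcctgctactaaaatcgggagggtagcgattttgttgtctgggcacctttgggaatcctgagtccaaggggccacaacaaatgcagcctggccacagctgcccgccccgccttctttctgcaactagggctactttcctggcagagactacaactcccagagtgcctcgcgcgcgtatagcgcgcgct
Mrps23, chr11:88204138-88204384, plus strand: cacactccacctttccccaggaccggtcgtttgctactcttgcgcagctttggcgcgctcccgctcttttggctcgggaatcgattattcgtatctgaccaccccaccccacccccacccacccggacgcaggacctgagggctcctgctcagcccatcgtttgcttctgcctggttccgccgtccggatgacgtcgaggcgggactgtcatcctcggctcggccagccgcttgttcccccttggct

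In Mrpl22 the ETS core began 53 bases and the NRF1 core 33 bases before the start site, and in Mrps22 the ETS core began 11 bases before it. Mrpl22 was at 19.0 ± 2.28 CPM in NTG and 17.2 ± 0.882 CPM in TG hearts, and Mrps22 at 25.8 ± 4.58 and 23.8 ± 1.97 CPM (± SD, 4 hearts each). By motif, the median log2 fold change was -0.06 for the 25 members with an ETS core, -0.08 for the 8 with an NRF1 core, -0.14 for the 8 with a YY1 core and -0.14 for the 33 with none. These groups cover the 68 members with a window and overlap: a member with several motifs, such as Mrpl22, counts under each.

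Many of these genes share their start with a neighbour. Counting protein-coding neighbours on the opposite strand whose start lies within 1000 bp, 33 of 77 members (42.9%) had such a partner, against 15.7% of 12353 protein-coding genes in the count files. The partners included complex I subunit genes (Ndufs6 beside Mrpl36, Ndufb5 beside Mrpl47), the mitochondrial seryl-tRNA synthetase gene Sars2 beside Mrps12, the mitochondrial helicase gene Twnk beside Mrpl43 and the chaperonin gene Tcp1 beside Mrpl18. One pair consists of a large and a small subunit gene, Mrpl46 and Mrps11 on chromosome 7. Mrpl46 had 31.1, 38.0, 24.5 and 27.5 CPM in the NTG hearts (A, B, D, E) and 28.4, 28.0, 28.0 and 24.2 CPM in the TG hearts (A, B, C, E). Mrps11 had 20.6, 17.3, 16.6 and 17.5 CPM in the NTG hearts (A, B, D, E) and 17.1, 16.6, 17.4 and 15.3 CPM in the TG hearts (A, B, C, E). The groups overlapped for both, and the log2 fold changes were -0.156 with an SE of 0.135 and -0.117 with an SE of 0.098, with edgeR adjusted p of 0.768 and 0.760. Members with and without a divergent partner had the same median log2 fold change to 2 decimals, -0.12. Exons of 20 members overlap those of another gene in the count files, so that without strand their reads cannot be told apart from that gene's; Mrpl14, Mrpl18, Mrps6, Mrps11, Mrpl46, Mrps25 and Mrps34 are among them.

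Before adjustment, 9 members had a p under 0.05, all with lower values in transgenic hearts (11.7% of members, against 5.38% of all tested genes that were lower and 5.37% that were higher at this level). The 9 were 5 large subunit genes (Mrpl14, Mrpl28, Mrpl18, Mrpl39, Mrpl58) and 4 genes with small subunit symbols (Mrps25, Mrps36, Mrps33, Mrps21). None passed after adjustment, and their values follow.

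Mrpl14 (ENSMUSG00000023939; chromosome 17, 45686322 to 45698495, plus strand) encodes a bacterial-type protein on the face of the large subunit where the assembly factor MALSU1 docks. It had 51.6, 46.2, 33.4 and 40.9 CPM in the NTG hearts (A, B, D, E) and 32.5, 35.2, 31.0 and 31.1 CPM in the TG hearts (A, B, C, E). Non-transgenic heart D lay within the transgenic range, and the other 3 non-transgenic hearts lay above it. The log2 fold change was -0.41 (SE 0.13, 95% interval -0.69 to -0.12, edgeR adjusted p = 0.26). Without heart D it was -0.52 (SE 0.10, edgeR adjusted p = 0.0478), the only member past the threshold in that set of 7 libraries.

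Mrpl28, another bacterial-type protein of the large subunit (ENSMUSG00000024181; chromosome 17, 26123500 to 26126613, plus strand), had 117, 117, 78.8 and 96.1 CPM in the NTG hearts (A, B, D, E) and 82.5, 82.2, 75.8 and 76.5 CPM in the TG hearts (A, B, C, E). Again only heart D reached into the transgenic range. Its log2 fold change was -0.37 (SE 0.13, 95% interval -0.65 to -0.08, edgeR adjusted p = 0.317), and without heart D -0.48 (SE 0.10, edgeR adjusted p = 0.0510).

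Mrpl18 (ENSMUSG00000057388; chromosome 17, 12911349 to 12916345, minus strand) was 1 of 4 members whose groups did not overlap with lower transgenic values. It had 72.1, 84.1, 59.5 and 64.9 CPM in the NTG hearts (A, B, D, E) and 59.4, 58.8, 56.1 and 47.0 CPM in the TG hearts (A, B, C, E). The gap was narrow, between 59.5 CPM in NTG heart D and 59.4 CPM in TG heart A. The log2 fold change was -0.34 (SE 0.12, 95% interval -0.61 to -0.07, edgeR adjusted p = 0.335). Its divergent neighbour Tcp1, whose exons overlap it, was at 207 ± 35.1 and 213 ± 10.7 CPM (SD, n = 4 each).

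The other 3 members without overlap had small subunit symbols. Mrps25, a mitochondria-specific protein (ENSMUSG00000014551; chromosome 6, 92169525 to 92184033, minus strand), had 56.0, 55.2, 49.7 and 49.7 CPM in the NTG hearts (A, B, D, E) and 45.9, 46.2, 45.4 and 40.3 CPM in the TG hearts (A, B, C, E), a log2 fold change of -0.24 (SE 0.08, 95% interval -0.43 to -0.06, edgeR adjusted p = 0.319). Mrps33 had 13.8, 16.2, 11.5 and 13.2 CPM in the NTG hearts (A, B, D, E) and 11.3, 10.9, 11.4 and 11.2 CPM in the TG hearts (A, B, C, E). The transgenic hearts were close together, at 11.2 ± 0.21 CPM (SD, n = 4), and the log2 fold change was -0.28 (SE 0.11, 95% interval -0.53 to -0.04, edgeR adjusted p = 0.386). Mrps36 had 15.5, 16.1, 14.5 and 14.6 CPM in the NTG hearts (A, B, D, E) and 12.5, 14.0, 11.7 and 13.3 CPM in the TG hearts (A, B, C, E). Despite its symbol, the product of Mrps36 is now known as a subunit of the 2-oxoglutarate dehydrogenase complex. Its log2 fold change was -0.24 (SE 0.09, 95% interval -0.45 to -0.03, edgeR adjusted p = 0.383). In all, 4 of 77 members (5.19%) had transgenic hearts below every non-transgenic heart, and 2.80% of all tested genes did.

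Mrps21, a bacterial-type protein of the small subunit, had 58.5, 66.4, 47.7 and 48.8 CPM in the NTG hearts (A, B, D, E) and 45.4, 49.4, 42.2 and 43.6 CPM in the TG hearts (A, B, C, E). Transgenic heart B lay above non-transgenic hearts D and E, so the groups overlapped. Mrpl39 had 85.6, 90.8, 75.2 and 78.6 CPM in the NTG hearts (A, B, D, E) and 75.5, 71.9, 70.8 and 66.6 CPM in the TG hearts (A, B, C, E), with transgenic heart A just above non-transgenic heart D. Mrpl58, a peptidyl-tRNA hydrolase built into the large subunit that frees stalled chains, had 32.5, 33.6, 24.8 and 28.0 CPM in the NTG hearts (A, B, D, E) and 25.5, 26.2, 24.6 and 22.8 CPM in the TG hearts (A, B, C, E). Transgenic hearts A and B exceeded non-transgenic heart D, which was the lowest of its group. For Mrps21, Mrpl39 and Mrpl58 the fitted log2 values were -0.29, -0.21 and -0.26 with SEs of 0.12, 0.09 and 0.11, with edgeR adjusted p of 0.401, 0.417 and 0.439.

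**Figure D3:**
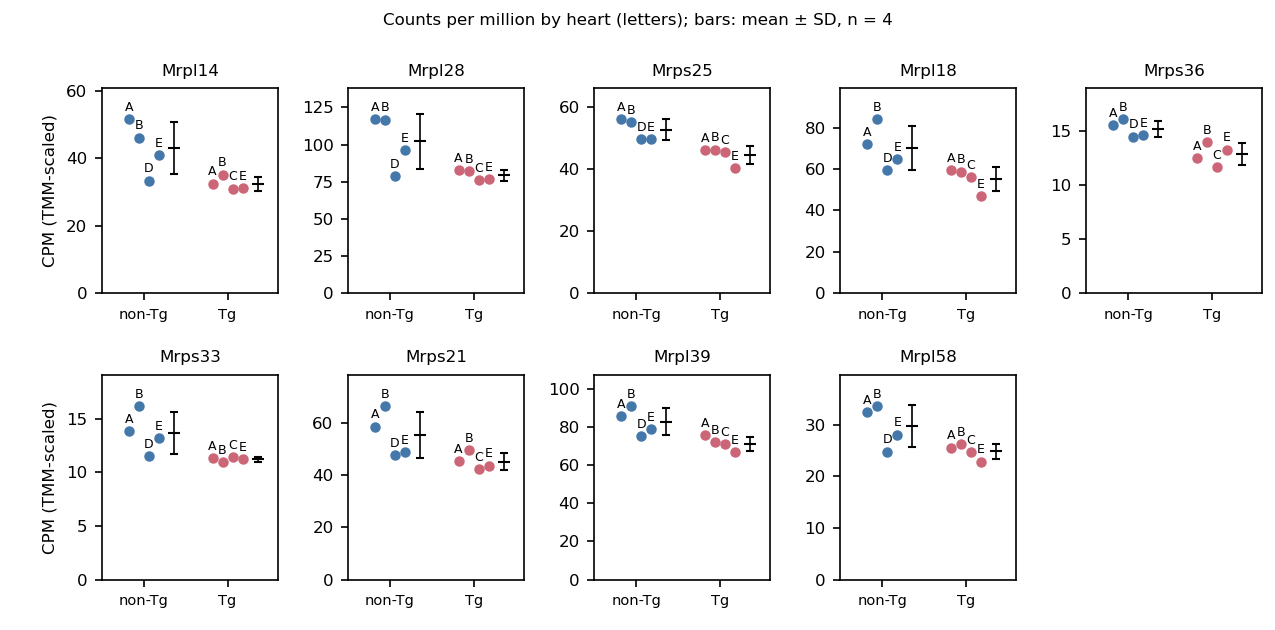
CPM in each heart (points, with the heart's letter) for the 9 members with an unadjusted p under 0.05, with mean and SD at the right of each group; every axis starts at 0. Non-transgenic hearts A and B are the 2 highest of the 8 hearts in all 9 panels, and non-transgenic heart D is the lowest of its group in all 9.

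Only 1 member had every transgenic heart above every non-transgenic heart (1.30%, against 4.58% of all tested genes). This was Mrpl27, whose bacterial counterpart reaches toward the catalytic centre of the large subunit. It had 15.5, 19.8, 17.8 and 20.0 CPM in the NTG hearts (A, B, D, E) and 20.2, 20.2, 21.3 and 20.6 CPM in the TG hearts (A, B, C, E). The non-transgenic range ended at 20.0 CPM and the transgenic range began at 20.2 CPM, and the log2 fold change was 0.17 (SE 0.10, 95% interval -0.05 to 0.40, edgeR adjusted p = 0.622). Beside Mrpl27, the largest positive log2 values in the large subunit were those of Mrpl19 at 0.171, Mrpl20 at 0.123 and Mrpl43 at 0.113, and in the small subunit those of Mrps34 at 0.198, Mrps6 at 0.171, Mrps18b at 0.165 and Mrps2 at 0.148, with SEs from 0.099 to 0.194 and with edgeR adjusted p from 0.650 to 0.827. The value of Mrps6 rested on 1 library. It stood at 34.3 CPM in transgenic heart A, the heart with the high atrial markers, and at 19.5 to 24.5 CPM in the other 7 hearts; without that heart and NTG heart D its log2 fold change was -0.022. The part of atrial tissue in this value was not tested, and the exons of Mrps6 overlap those of Slc5a3, an inositol transporter gene.

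Members with more counts tended to have lower fold changes; across the 77 members, which share the same libraries, Spearman's rho of log2 fold change with mean log2 CPM was -0.31, given as a description. Mrpl42, the member of most counts and a mitochondria-specific large subunit protein, took 7.30% of all CPM of the 77 genes in non-transgenic hearts. It had 281, 333, 224 and 243 CPM in the NTG hearts (A, B, D, E) and 235, 233, 222 and 206 CPM in the TG hearts (A, B, C, E). Non-transgenic hearts A and B lay above the rest and heart D within the transgenic range (log2 fold change -0.27 (SE 0.13, 95% interval -0.55 to 0.01, edgeR adjusted p = 0.491)). Mrps23 had 144, 153, 107 and 125 CPM in the NTG hearts (A, B, D, E) and 127, 146, 137 and 123 CPM in the TG hearts (A, B, C, E), with both groups spread over the same range and a log2 fold change of 0.01 (SE 0.12, 95% interval -0.26 to 0.28, edgeR adjusted p = 0.987). Mrpl12, known also to bind the mitochondrial RNA polymerase, was at 86.3 ± 6.01 and 84.2 ± 4.58 CPM (SD, n = 4 each; log2 fold change -0.04, SE 0.08).

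Some symbols do not tell where a protein sits. The paralogs Mrps18a, Mrps18b and Mrps18c descend from 1 bacterial protein; the product of Mrps18a is found in the large subunit, those of Mrps18b and Mrps18c in the small one. Mrps18a had 60.5, 51.8, 47.9 and 52.8 CPM in the NTG hearts (A, B, D, E) and 44.2, 55.2, 51.3 and 51.7 CPM in the TG hearts (A, B, C, E). Mrps18b had 15.6, 16.9, 15.1 and 15.1 CPM in the NTG hearts (A, B, D, E) and 13.7, 20.4, 19.4 and 16.9 CPM in the TG hearts (A, B, C, E). Mrps18c had 17.0, 21.9, 12.2 and 14.1 CPM in the NTG hearts (A, B, D, E) and 14.7, 15.6, 13.2 and 11.98 CPM in the TG hearts (A, B, C, E). The groups overlapped for all 3, and the log2 fold changes were -0.073, 0.165 and -0.231 with SEs of 0.101, 0.128 and 0.175 and edgeR adjusted p of 0.862, 0.737 and 0.729. Mrps30, likewise a protein of the large subunit, was at 29.7 ± 3.06 and 30.5 ± 2.92 CPM (SD, n = 4 each; log2 fold change 0.03, SE 0.11). With Mrps18a and Mrps30 counted as large subunit genes, the medians were -0.125 for 50 large and -0.116 for 27 small subunit genes. Mrps36 was kept among the 27.

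By standard ribosomal protein names, 46 members are classed as bacterial type and 31 as specific to mitochondria. Their median log2 fold changes were -0.116 and -0.131. The 31 include Mrps18a and Mrps18b, which descend from a bacterial protein as stated above. They also include Mrps36, whose product belongs to another complex. Within the large subunit, the 18 mitochondria-specific genes had a median of -0.17 and a median level of 22.1 CPM per kb, and the 30 bacterial-type genes -0.11 and 17.8 CPM per kb. Among small subunit symbols the order was the opposite. The 13 mitochondria-specific genes had -0.07 and 8.002 CPM per kb, and the 16 bacterial-type genes -0.13 and 14.8 CPM per kb. The 13 include Mrps18a, Mrps18b, Mrps30 and Mrps36, and the median of -0.07 is the value of Mrps18a itself. The order was not worked out without these genes. This grouping was made after the fold changes were known and was given no test.

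Under TMM scaling, most members were high or low in the same hearts. Non-transgenic heart B was the highest of the 8 hearts for 43 of 77 members and heart A for 16. The lowest heart was transgenic heart E for 28 members and non-transgenic heart D for 20. The median deviation of the large subunit genes from their mean over all hearts, on the log2 scale, had the values 0.126, 0.241, -0.122 and 0.009 in the NTG hearts (A, B, D, E) and -0.060, 0.017, -0.028 and -0.155 in the TG hearts (A, B, C, E). For the small subunit the values in the same order were 0.125, 0.190, -0.117 and -0.027, then -0.069, 0.030, -0.013 and -0.107. NTG hearts A and B thus lay above every TG heart and NTG heart E within the TG range. NTG heart D was the lowest of all hearts for the small subunit and, after TG heart E, for the large one. The median coefficient of variation of a large subunit gene was 13.2% in non-transgenic and 5.89% in transgenic hearts, that of a small subunit gene 13.1% and 7.86%, and 66 of the 77 members (85.7%) varied more in the non-transgenic group, as did 77.5% of all tested genes. With library totals 43 members (55.8%) and 79.8% of all tested genes did, and the medians were 7.61% and 5.96% for the large and 7.03% and 8.39% for the small subunit.

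The order of hearts depended on the scaling too: with library totals, non-transgenic heart B was the highest for 21 members and the lowest for 21. Mitochondrially encoded genes took 18.6% of counts in non-transgenic heart D and 30.1% in non-transgenic heart B, and the TMM factors of these libraries were 1.11 and 0.853. Relative to plain library totals, the 77 genes together took 0.355% to 0.364% of counts in non-transgenic hearts and 0.333%, 0.365%, 0.367% and 0.333% in transgenic hearts A, B, C and E. On that scale the sums varied more among transgenic hearts: the large subunit summed to 2500 ± 26.6 CPM in non-transgenic and 2409 ± 126 CPM in transgenic hearts, and the small subunit to 1085 ± 15.3 and 1084 ± 65.2 CPM (SD, n = 4 each). Under TMM the sums were 2582 ± 300 and 2344 ± 110 CPM for the large, and 1120 ± 118 and 1055 ± 54.0 CPM for the small subunit. With library totals the median log2 fold changes were -0.052 (large) and -0.022 (small), while that of all tested genes moved from 0.006 to 0.076. On this scale 12 members (15.6%) had transgenic hearts below every non-transgenic heart, where 2.57% of all tested genes did, and 1 member (Mrpl40) had them above, where 5.36% did. The 12 were Mrpl14, Mrpl18, Mrpl28, Mrpl39, Mrpl42, Mrpl49, Mrpl50, Mrpl58, Mrps9, Mrps21, Mrps31 and Mrps33, named here after their values were seen. Of these only Mrpl18 and Mrps33 were also without overlap under TMM.

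**Figure D4:**
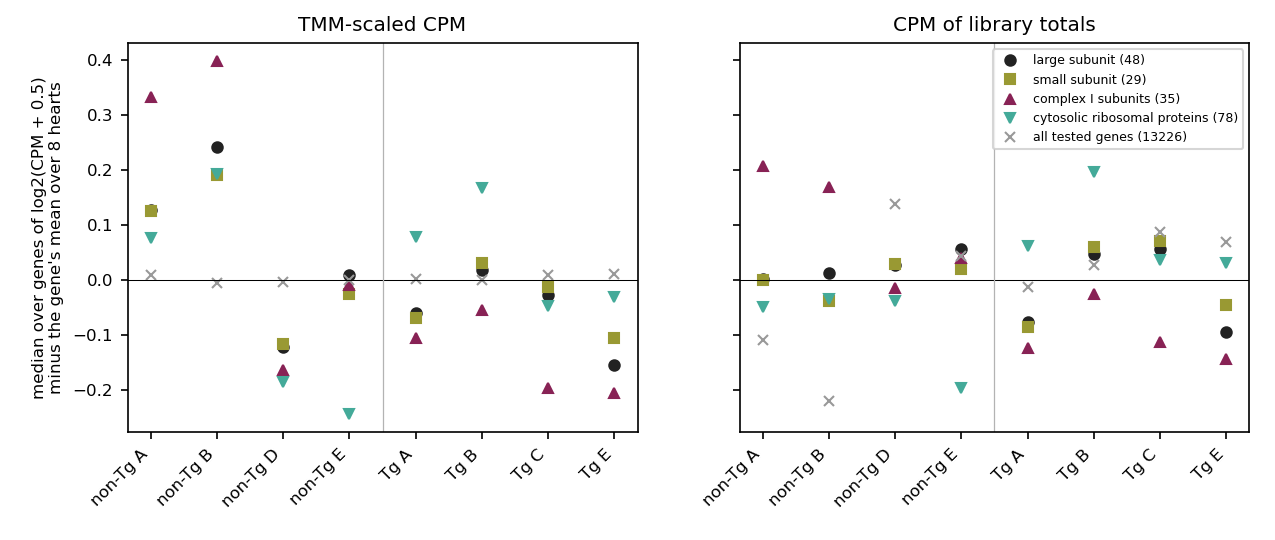
Median over the genes of each list of log2(CPM + 0.5) minus the gene's mean over the 8 hearts, for TMM-scaled CPM (left) and CPM of library totals (right); Tg stands for transgenic. Under TMM the large subunit genes reach 0.241 in non-transgenic heart B and -0.155 in transgenic heart E, whereas with library totals they stay between -0.095 and 0.056.

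The balance of large to small subunit transcripts does not depend on the scaling. Summed counts of the large subunit were 2.30, 2.34, 2.27 and 2.31 times those of the small subunit in the NTG hearts (A, B, D, E). In the TG hearts (A, B, C, E) they were 2.26, 2.20, 2.22 and 2.22 times. The groups did not overlap, with means of 2.30 ± 0.0305 and 2.22 ± 0.0262 (SD, n = 4 each). The gap was narrower than either SD, between non-transgenic D (2.2652) and transgenic A (2.2600). Without Mrpl42 the ratios were 2.06 ± 0.0192 and 2.01 ± 0.0172, again without overlap. That gap too was narrower than either SD, between non-transgenic D (2.0377) and transgenic A (2.0326). With Mrps18a and Mrps30 moved to the large subunit they were 2.57 ± 0.0268 and 2.49 ± 0.0139, without overlap. Taken as mean CPM per kb, which weights genes by level per length, they were 1.36 ± 0.0214 and 1.31 ± 0.0163, and the groups nearly touched at non-transgenic heart B (1.3327) and transgenic heart C (1.3325). As the difference of the subunits' median deviations the groups overlapped, at 0.021 ± 0.027 and -0.0166 ± 0.0235. The ratio is a score over chosen genes and was given no test; the difference amounted to a few percent.

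**Figure D5:**
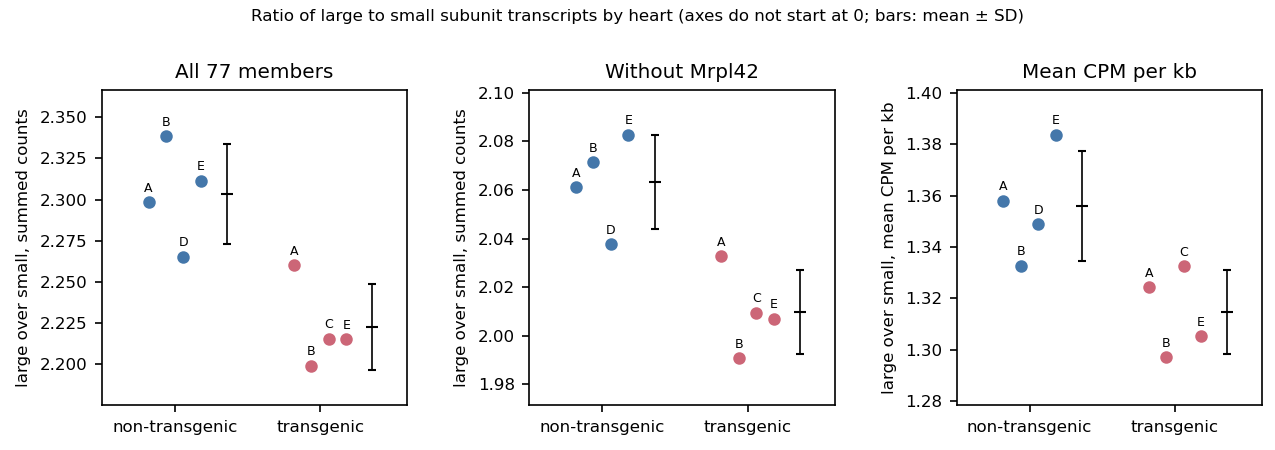
Ratio of large to small subunit transcripts in each heart (points, with the heart's letter), from summed counts of all 77 members, from summed counts without Mrpl42 and from mean CPM per kb; bars are mean and SD, and the axes do not start at 0. In the first panel the non-transgenic hearts lie between 2.27 and 2.34 and the transgenic hearts between 2.20 and 2.26.

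Most fold changes in other protein lists of the mitochondrial translation machinery were also below 0. Of 5 further ribosomal proteins whose symbols fall outside the rule (Dap3, Ptcd3, Aurkaip1, Chchd1 and Gadd45gip1), 0 passed the test and all 5 had fold changes below 0 (median -0.21). Dap3, a GTP-binding protein of the small subunit, was at 88.7 ± 10.2 and 75.8 ± 4.39 CPM (± SD, 4 hearts each; adjusted p = 0.447 by edgeR), and Ptcd3 at 171 ± 44.3 and 144 ± 7.86 CPM (0.661). Of 28 assembly and rRNA modification factors, 0 passed, and the median log2 fold change was -0.12. Mpv17l2, an inner membrane protein needed for ribosome assembly, was at 6.87 ± 0.448 and 8.24 ± 0.305 CPM without overlap between groups (log2 fold change 0.26, SE 0.10, edgeR adjusted p = 0.347). Fastkd2, a relative of the transgene's product that acts in large subunit assembly, was at 45.9 ± 10.5 and 38.8 ± 2.05 CPM, Rpusd4 at 15.1 ± 2.40 and 13.1 ± 0.866 CPM, and Rcc1l, lower without overlap between groups, at 24.1 ± 1.66 and 22.0 ± 0.655 CPM, with edgeR adjusted p of 0.636, 0.614 and 0.655.

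Of 15 tested translation factors 0 passed, 14 had fold changes below 0 and the median was -0.11. Gfm2, which splits finished ribosomes, had the smallest p, at 97.6 ± 17.2 and 79.8 ± 1.73 CPM (SD, n = 4 each; log2 fold change -0.29, SE 0.12, edgeR adjusted p = 0.422). The elongation factor gene Tufm was at 115 ± 10.7 and 103 ± 9.59 CPM (0.634), Guf1 at 36.6 ± 5.74 and 32.2 ± 1.04 CPM (0.629), and Mtrf1, a release factor relative, at 15.1 ± 3.11 and 13.2 ± 1.05 CPM (0.723). The ribosomal RNAs themselves, encoded in mitochondrial DNA, were at 2618 ± 890 and 3243 ± 376 CPM for mt-Rnr1 and 6615 ± 2408 and 5388 ± 397 CPM for mt-Rnr2 (edgeR adjusted p = 0.689 and 0.714). Their log2 fold changes had opposite signs, 0.309 (SE 0.211) for mt-Rnr1 and -0.296 (SE 0.214) for mt-Rnr2. How much of these RNAs a library holds also depends on how ribosomal RNA was removed or mRNA selected, on which the sources used here are silent.

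By median log2 fold change, the members lay between complex I and the cytosolic ribosome. The 35 complex I subunit genes had a median log2 fold change of -0.30, with 35 of 35 below 0 and 0 past the threshold. At an unadjusted p under 0.05 by edgeR, 22 of the 35 were lower, against 5.38% of all tested genes. Of all tested genes, 48.8% had a fold change below 0, 1.01% rose and 0.242% fell past the threshold. The 78 genes of the cytosolic ribosome had a median of 0.06, with 12 below 0 and 1 that rose. Both lists were high in non-transgenic heart B under TMM (0.40 and 0.19 on the log2 scale), as the mitochondrial ribosome was. These medians come from the same hearts and were not tested against each other.

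The counts also depended on which hearts were included. Without non-transgenic heart D, the median log2 fold changes were -0.190 (large) and -0.163 (small). In that set 21 members (27.3%) had lower values at an unadjusted p under 0.05, against 8.43% of all tested genes, and 1 (Mrpl14) fell after adjustment, against 0.544%. Without both heart D and transgenic heart A, the medians were -0.157 and -0.167, 15 members (19.5%) were lower at an unadjusted p under 0.05 against 9.39% of all tested genes, and 0 passed after adjustment, against 0.802%. With any other single heart left out, 3 to 11 members were lower at an unadjusted p under 0.05. The fewest were seen without non-transgenic heart A, with 3 members (3.90%) against 3.74% of all tested genes. Leaving out non-transgenic heart B gave 7 (9.09%) against 5.87%, with medians of -0.069 and -0.040, and leaving out non-transgenic heart E gave 11 (14.3%) against 6.24%. Without transgenic heart A there were 6 (7.79%) against 6.07%, and without transgenic heart B 7 (9.09%) against 3.61%. Without transgenic heart C there were 5 (6.49%) against 3.76%, and without transgenic heart E 5 (6.49%) against 4.63%.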

How the data were processed

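The authors deposited raw read counts per Ensembl gene, 1 library per file, for 8 hearts; the submitters' processing notes name cutadapt 1.15, TopHat2 and the assembly GRCm38 (mm10). Counter, strand setting and annotation: not given in the sources used here. In every gene the second-highest CPM was at least 1.003, so lower genes were not analysed here. Symbols, coordinates and merged exon lengths came from GENCODE M21 (GRCm38); 7 identifiers had no entry.

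Counts were fitted with edgeR 4.0.16 under R 4.3.3 (TMM scaling, filterByExpr on the 2 groups, glmQLFit, glmQLFTest, no block), two-sided, with Benjamini-Hochberg adjustment over 13226 genes. The SE was worked back from the F value, and intervals use its 95% t quantile. The fit was tested on simulated counts. Alternatives were other scalings, filters and thresholds, DESeq2 1.42.0, limma 3.58.1 voom, a block on title letters, leaving out libraries, and moving Mrps18a and Mrps30. The members and lists were chosen with earlier results of these data known. Named members were, in each subunit, those past the threshold, the 8 with the smallest p, the 4 largest rises and falls, the 4 highest and lowest levels per kilobase, those without overlap between groups, and Mrps18a, Mrps18b, Mrps18c, Mrpl12, Mrps30 and Mrps36, with up to 4 genes of smallest p from each other list; other members named in the text were chosen after their values were seen.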

Additional observations from a re-analysis of the deposited data

Results flagged for a closer look

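Within groups of 4 hearts, 3 of 90 sets of values had 1 heart far from the others by Dixon's ratio at its 95% critical value; chance flags about 1 set in 20. Mrps25 was at 40.3 CPM in transgenic heart E and at 45.4 to 46.2 CPM in the other 3 transgenic hearts. Mrps31 was at 35.8 CPM in the same heart and at 43.0 to 44.4 CPM in the others. Mrps34 was at 7.49 CPM in transgenic heart A and at 9.34 to 9.71 CPM in the others.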

How the results depend on the processing

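The counts of members past the threshold stayed at 0 under every alternative run except without NTG heart D, where 1 large subunit gene fell (range 0 to 1 with single libraries left out). The median log2 fold changes kept their sign, at -0.190 to -0.069 for the large and -0.163 to -0.040 for the small subunit with single libraries left out, and at -0.046 and -0.015 with voom sample weights. Of 36 named members, 26 kept the sign of their fold change under all alternatives. With library totals it turned for Mrpl12 (0.044), Mrpl33 (0.029), Mrps10 (0.024), Mrps18a (0.00723), Mrps5 (0.044) and Aurkaip1 (0.056). With voom sample weights it turned for Mrpl17 (-0.00121), Mrpl23 (0.012), Mrpl33 (0.039), Mrps10 (0.017) and Aurkaip1 (0.025). With NTG heart D and TG heart A both left out it turned for Mrps23 (-0.058), Mrps30 (-0.000184) and Mrps6 (-0.022). With single libraries left out, values ran from -0.083 to 0.00686 for Mrpl12, -0.014 to 0.101 for Mrpl17, -0.146 to 0.029 for Mrpl33, -0.159 to 0.020 for Mrps10, -0.088 to 0.090 for Mrps23, -0.037 to 0.080 for Mrps30, -0.020 to 0.254 for Mrps6 and -0.087 to 0.024 for Aurkaip1. The causes were not tested. Counts of all genes called moved most with voom sample weights, to 366 higher and 236 lower, and with DESeq2, to 249 and 159, from 133 and 32.

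Title letters A, B and E occur in both groups, but nothing in the labels says that they pair animals. Same-letter hearts deviated together for A (correlation 0.297) and E (0.36) and not for B (-0.085). Among hearts of unlike letters the values ran from -0.438 to 0.448. Of these, only non-transgenic E with transgenic C (0.448) exceeded the values of A and E. So few shared letters cannot decide whether same-letter hearts are related. The letters were not taken as pairs because the labels do not say so. Letters C and D each occur in a single group, so with the letter as a block those hearts add nothing to the group difference. With the letter as a replicate block, 0 members passed, the medians were -0.185 (large) and -0.175 (small), and the sign turned for Mrps23 (-0.094) and Mrps30 (-0.071).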
